A study of Mus musculus with 12 samples.

Results

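EGF receptor signalling in the mesenchyme was examined here through 7 genes measured by bulk RNA-seq, which reads the RNA of a whole culture: the ligand genes Hbegf, Ereg, Areg, Tgfa and Nrg1, the receptor gene Egfr, and Errfi1, which encodes an inhibitor of the receptor. They were chosen by name, as the rows whose symbol equals one of the 7, from the 52636 genes that were listed for each of 12 libraries. EGF family ligands are made as membrane-anchored precursors and are cut loose by ADAM proteases. Released ligand pairs EGFR with itself or with ErbB2, which starts the RAS to ERK cascade, whereas neuregulins bind ErbB3 and ErbB4. Signalling through EGFR induces its own brakes, ERRFI1 (also called MIG6) among them, and in the lung it is best known for epithelial repair and for growth of the mesenchyme.

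The libraries formed 4 groups of 3: murine SMCs and lung PDGFR-β+ cells, each given Scr RNA, a scrambled control, or siKlf4, a small interfering RNA against the transcription factor gene Klf4. The SMCs were bought primary cells of the C57BL/6 strain, titled airway SMCs but given a tracheal source in the labels, with no age. The PDGFR-β+ cells came from lungs of C57BL/6 mice 12 weeks old. By the study's methods they were the ZsGreen+ cells sorted from tamoxifen-treated Pdgfrb-CreERT2, ROSA26R(Zs/+) animals. The labels, by contrast, call the Scr samples wild type and name no reporter, and the siKlf4 samples of both cell types carry Klf4 knockdown as their genotype. All cells were serum starved, transfected and then kept in supplemented SMC medium, which the methods describe for SMC culture as containing EGF and FGF, so by that description an EGFR ligand was in the medium of every group. The study describes its repeats as biological and the RNA-seq experiments as independent, but the labels do not tie libraries to animals or cultures, so the p-values measure the spread between these libraries.

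Values are given as TPM, a transcript abundance scaled to transcript length and to the same total in each library, so that levels of different genes can be compared. TPM keeps no read counts, so the depth behind each value is unknown. Within each cell type, limma was fitted to log2(TPM + 1) of every gene that averaged 1 TPM or more across its 6 libraries, with Benjamini-Hochberg adjustment over all genes tested and a threshold of 0.05. Fold changes are on that scale and understate the change of low genes. The target of the siRNA was lowered: Klf4 stood at 89.6 to 96.3 TPM in Scr and 16.3 to 26.5 TPM in siKlf4 SMCs (21.9% of the Scr mean left), and at 134 to 146 and 12.3 to 13.8 TPM in PDGFR-β+ cells (9.16% left).

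The labelled cell types were checked against marker genes. Markers of epithelium, a main user of EGFR ligands in the lung, were near 0: none of 7 reached a mean of 1 TPM in either cell type, Krt8 and Sftpc were listed at 0 in all 12 libraries, and the summed level was at most 1.10 TPM. Smooth muscle markers (Acta2, Tagln, Myh11, Cnn1, Des, Lmod1 and Myocd) were not particular to the SMCs, since they summed to 1435 to 2220 TPM in their Scr libraries and 5495 to 6338 TPM in the Scr libraries of PDGFR-β+ cells, and Myocd was at most 0.213 TPM in any library. With siKlf4 the sum was 3305 to 4067 TPM in SMCs, where 5 of the 6 markers tested rose and none fell, and 4630 to 4930 TPM in PDGFR-β+ cells, where 2 rose and 3 fell. Beside these counts and the mesenchymal ones below, 15.6% of all genes tested rose and 12.9% fell in SMCs. In PDGFR-β+ cells 25.3% rose and 15.3% fell. Macrophage and leukocyte markers summed to 4.68 to 7.19 TPM in Scr and 4.44 to 6.51 TPM in siKlf4 SMCs, against 28.7 to 29.9 and 18.7 to 22.8 TPM in PDGFR-β+ cells, mostly Lyz2, with the pan-leukocyte gene Ptprc at most 0.266 TPM. Endothelial markers summed to 1.56 to 3.93 and 3.57 to 4.27 TPM in SMCs, and to 15.2 to 18.4 and 14.1 to 16.0 TPM in PDGFR-β+ cells. In PDGFR-β+ cells the endothelial sum was mostly Kdr, with a mean of 13.9 TPM. Pecam1, Cdh5 and Emcn were there at most 0.218, 0.0539 and 0.215 TPM, and their means were below those in SMCs. Mesenchymal markers (Pdgfrb, Pdgfra, Col1a1, Col3a1, Vim) summed to 3111 to 3793 TPM in siKlf4 against 4645 to 5011 TPM in Scr SMCs, where 2 of the 5 fell and none rose, and to 4114 to 4777 against 5282 to 5882 TPM in PDGFR-β+ cells, where 3 fell and none rose. Gm42418, a gene model over ribosomal RNA, held 1.80% to 3.23% of all TPM in Scr and 4.44% to 5.77% in siKlf4 SMCs, and 3.48% to 6.33% and 3.60% to 6.25% in PDGFR-β+ cells. The part of these markers in the results below was not tested. In bulk RNA, fewer cells of a type and less RNA per cell cannot be told apart.

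At baseline, in Scr SMCs, the inhibitor gene was the highest of the 7 and the receptor gene came next. Errfi1 had a mean of 205 TPM ± 7.32 (SD, n = 3) and Egfr of 160 ± 20.5, followed by Nrg1 at 35.0 ± 1.65, Ereg at 25.7 ± 2.47, Tgfa at 8.24 ± 0.562 and Hbegf at 3.73 ± 0.765, with Areg listed at 0 in each library. Each gene in this order was above the next in every library. In Scr PDGFR-β+ cells Errfi1 was again highest, at 103 ± 2.71 TPM, but the next genes ran together: Egfr at 55.1 ± 10.2, Ereg at 41.9 ± 3.17, Nrg1 at 36.5 ± 7.32 and Hbegf at 25.7 ± 6.63 each overlapped the next in range. Tgfa at 3.05 ± 0.126 and Areg at 0.411 ± 0.246 lay below them, clear of their neighbours. With siKlf4 Ereg moved above Nrg1 and Hbegf above Tgfa in SMCs, with no overlap between neighbours, whereas in PDGFR-β+ cells Egfr cleared the ligands and Nrg1, Hbegf and Ereg overlapped at 34.2 ± 1.91, 32.0 ± 1.71 and 29.8 ± 1.71 TPM. The cell types differ in source, culture before transfection and table of values, so no test was made between their levels.

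**Figure D1:**
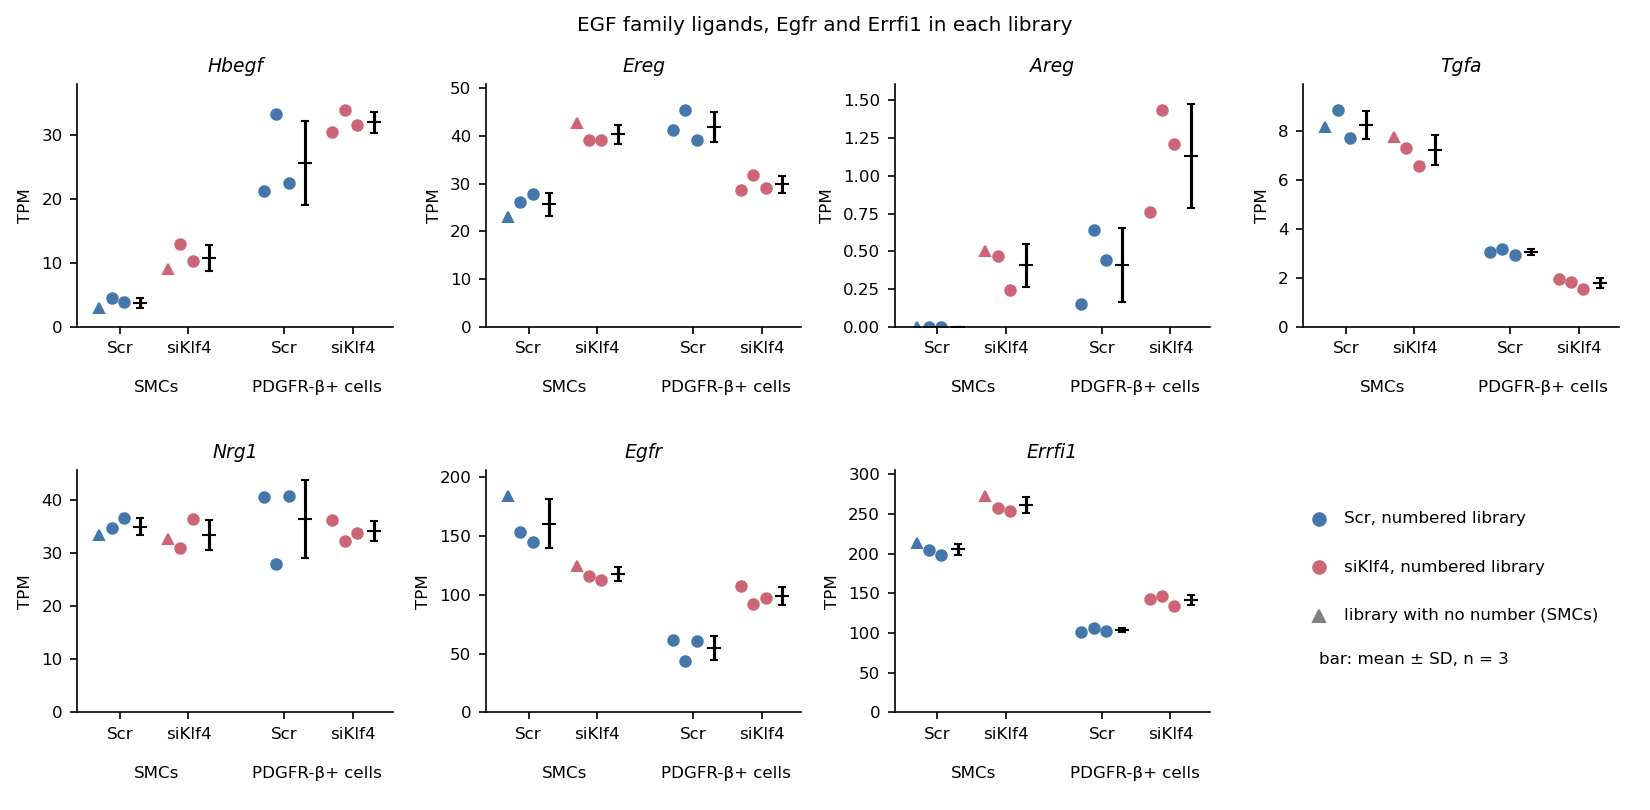
TPM (linear axes from 0, a scale for each gene) of the 7 genes in the 12 libraries, with the mean and SD of each group of 3 as bars and the 2 SMC libraries that carry no replicate number as triangles. With siKlf4 Egfr is lower in SMCs but higher in PDGFR-β+ cells, Ereg is the reverse, Errfi1 is higher in both, and the Nrg1 groups overlap in both.

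In SMCs 4 of the 6 genes tested passed the threshold with siKlf4, of which Hbegf, Ereg and Errfi1 rose and Egfr fell. Of all 13709 genes tested there 28.5% passed, 15.6% upwards and 12.9% downwards. In PDGFR-β+ cells 4 of 6 passed as well, with Egfr and Errfi1 higher and Ereg and Tgfa lower, where 40.6% of 13694 genes passed (25.3% with a rise and 15.3% with a fall). The groups of 3 did not overlap for 4 of the 6 in each cell type, against 47.1% of all genes in the SMC fit and 53.8% in the PDGFR-β+ fit. The median log2 fold change of the 6 was 0.14 in SMCs, where that of all genes tested was 0.017, and 0.13 in PDGFR-β+ cells, where it was 0.097. SMCs and PDGFR-β+ cells differed in their response for 3 of the 6, Hbegf, Ereg and Egfr, by the interaction term of a limma fit over the 12 libraries, which 33.0% of 13032 genes passed. Ereg and Egfr passed the threshold in opposite directions in the 2 cell types, as did 4.24% of the genes tested in both. Nothing particular to these genes is read from counts over so few. Areg had a mean below 1 TPM in both cell types and was not tested.

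**Figure D2:**
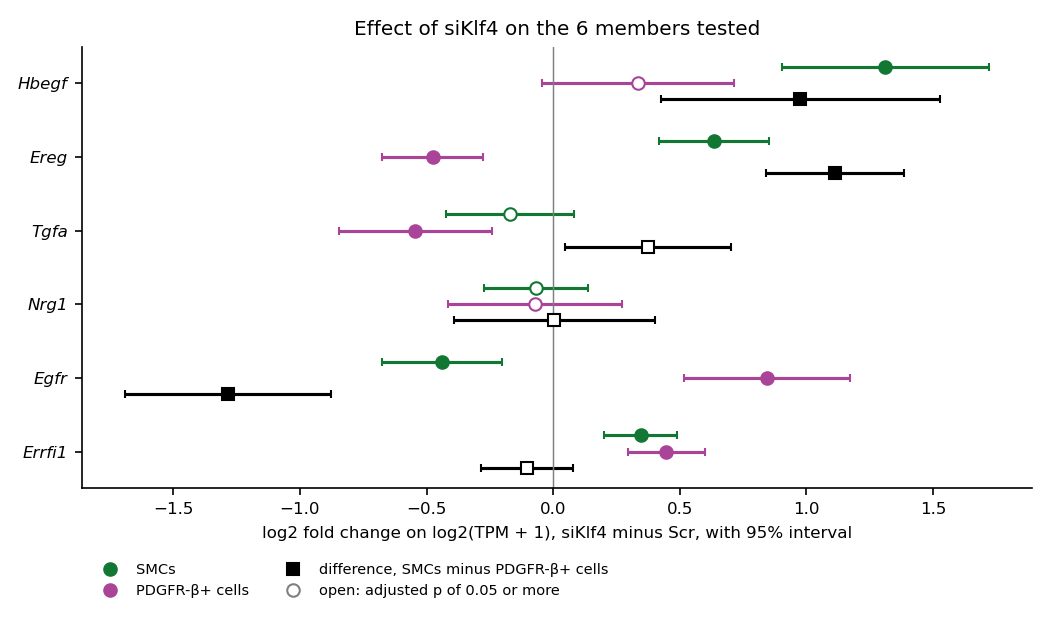
Log2 fold change on log2(TPM + 1), siKlf4 minus Scr, with 95% intervals from limma for the 6 genes with a test in SMCs and PDGFR-β+ cells (circles), and the difference of the effects (squares); open symbols have an adjusted p of 0.05 or more. Egfr lies at -0.44 in SMCs and 0.84 in PDGFR-β+ cells and Ereg at 0.64 and -0.48, while the intervals of Nrg1 span 0.

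Among the ligands, Hbegf, heparin-binding EGF-like growth factor, a mitogen of smooth muscle, had the largest fold change of the 6 in SMCs. The gene spans 36504927 to 36515805 on the reverse strand of chromosome 18 in GRCm38. It stood at 2.94, 4.46 and 3.80 TPM in the Scr SMC libraries (the unnumbered library, then replicates 2 and 3) and at 9.04, 12.9 and 10.3 TPM in the siKlf4 libraries in the same order. Every siKlf4 library was above every Scr library, for a log2 fold change of 1.31 ± 0.17 (SE; adjusted p = 0.00305, limma). In PDGFR-β+ cells, where the Scr mean was 25.7 TPM beside 3.73 TPM in SMCs, the Scr libraries 1 to 3 held 21.2, 33.3 and 22.5 TPM and the siKlf4 libraries 30.6, 33.9 and 31.6 TPM. Scr replicate 2 was high and overlapped the siKlf4 libraries, and the difference did not pass the test (log2 fold change 0.34 ± 0.16, 95% interval -0.044 to 0.71, adjusted p = 0.137 by limma). Without Scr replicate 2 it did, at 0.53 with an adjusted p of 0.00494, so 1 library decided that call. The effect was larger in SMCs by 0.98 ± 0.25 on the log2 scale (adjusted p = 0.0116 by limma).

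Ereg, which encodes epiregulin, a ligand of low affinity for EGFR and ErbB4, moved in opposite directions in the 2 cell types. In SMCs it rose, from 23.0, 26.1 and 27.8 TPM in Scr to 42.6, 39.2 and 39.1 TPM in siKlf4. The groups did not overlap, with a log2 fold change of 0.64 ± 0.093 (limma, adjusted p = 0.00405). In PDGFR-β+ cells it fell, from 41.3, 45.4 and 39.1 TPM to 28.7, 31.8 and 29.0 TPM, again with no overlap (log2 fold change -0.48 ± 0.086, adjusted p = 0.00404 by limma). The effects differed by 1.11 ± 0.12 on the log2 scale (adjusted p = 6.5e-05, limma).

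Ereg spans bases 91074622 to 91093646 of chromosome 5, forward strand, in a run of EGF family genes: Epgn ends 39406 bp before it, Areg (91139599 to 91148432) starts 45952 bp after it, and Btc follows Areg at 208828 bp on the reverse strand. Its start shares 152 bp with Gm19610, an antisense RNA gene on the reverse strand, which is named because it overlaps Ereg and was picked out after its values were seen. Gm19610 moved opposite to Ereg in PDGFR-β+ cells, from 8.15, 7.30 and 8.46 TPM in Scr to 14.5, 16.7 and 16.2 TPM in siKlf4, with no overlap (log2 fold change 0.90 ± 0.10, adjusted p = 4.8e-04 by limma). In SMCs it held 2.74 to 5.66 TPM in Scr and 3.05 to 3.88 TPM in siKlf4 (0.0090 ± 0.24, adjusted p = 0.982 by limma). The library kit named in the methods keeps strand, but how strand was used in the estimates of abundance is not given in the sources used here, so reads of the shared bases may have been assigned to either gene.

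Areg, amphiregulin, a ligand of EGFR known from epithelial repair and type 2 immunity, was close to the limit of measurement. It was listed at 0 in all 3 Scr SMC libraries and at 0.503, 0.471 and 0.242 TPM in the siKlf4 libraries. In PDGFR-β+ cells it held 0.150, 0.639 and 0.443 TPM in Scr and 0.758, 1.43 and 1.21 TPM in siKlf4. The siKlf4 libraries were above the Scr libraries in both cell types, and both comparisons reached 0.1, the lowest two-sided p that an exact permutation of 3 against 3 libraries allows. When the minimum level was dropped, so that Areg entered the fit, its log2 fold change was 0.49 in SMCs (adjusted p = 0.0184, limma) and 0.60 in PDGFR-β+ cells (adjusted p = 0.0733, limma), in which 2 of the 3 siKlf4 libraries were above 1 TPM.

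Btc, betacellulin, the ligand gene past Areg, changed in PDGFR-β+ cells. It went from 5.73, 4.33 and 4.92 TPM in Scr to 12.1, 10.9 and 9.73 TPM in siKlf4, so the groups were far apart (log2 fold change 0.99 ± 0.13, adjusted p = 9.7e-04 by limma). In SMCs it stood at 2.10 to 4.48 and 2.66 to 3.47 TPM, which overlapped (-0.10 ± 0.23, adjusted p = 0.758 by limma), and the effects differed by -1.10 (adjusted p = 0.00958, limma). Within this stretch of chromosome 5 Ereg and Btc therefore moved in opposite directions in PDGFR-β+ cells. Epgn, the gene of epigen at the other end, was at most 0.201 TPM in any library.

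**Figure D3:**
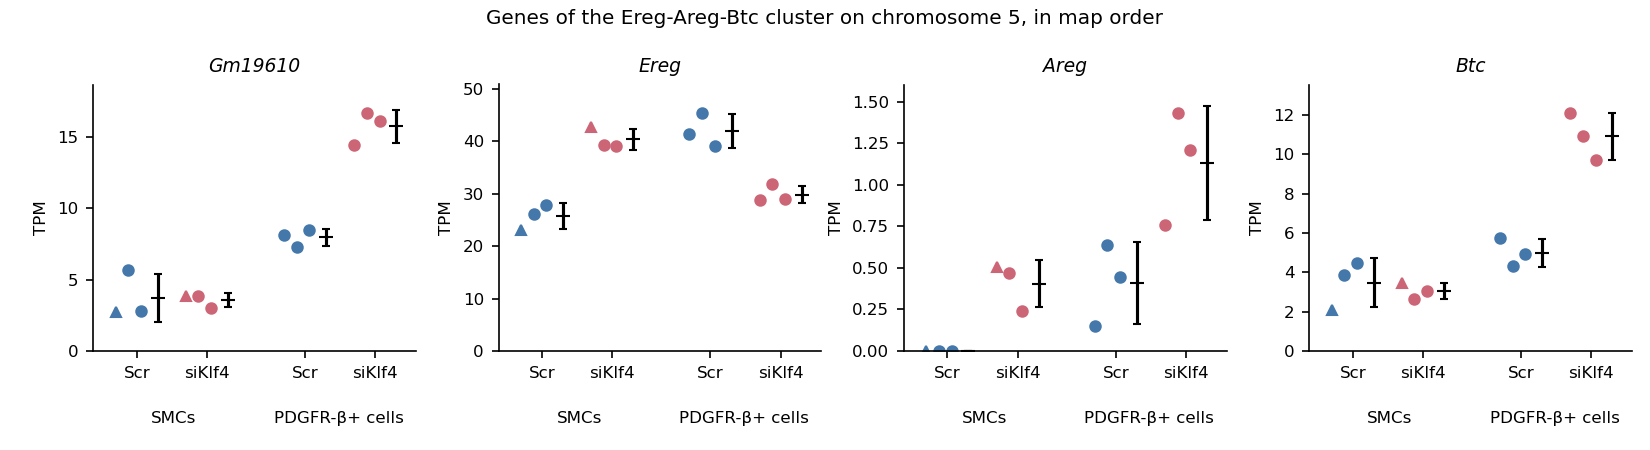
TPM (linear axes from 0) of Gm19610, Ereg, Areg and Btc in the 12 libraries, in their order on chromosome 5; bars are the mean and SD of 3 libraries and triangles the SMC libraries with no replicate number. In PDGFR-β+ cells Ereg falls with siKlf4 while Gm19610, Btc and the low Areg values are higher, and in SMCs Ereg is higher while the Gm19610 and Btc groups overlap.

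Tgfa, transforming growth factor alpha, a high-affinity ligand of EGFR, fell in PDGFR-β+ cells, where it was low. It stood at 3.04, 3.18 and 2.93 TPM in Scr and 1.96, 1.83 and 1.56 TPM in siKlf4, with no overlap (log2 fold change -0.54 ± 0.13, adjusted p = 0.0129 by limma). In SMCs, where its level was higher, the Scr libraries held 8.15, 8.84 and 7.73 TPM and the siKlf4 libraries 7.77, 7.30 and 6.58 TPM. The groups overlapped by 1 library and the change of -0.17 ± 0.11 did not pass (adjusted p = 0.273, limma). The difference between the effects, 0.37 with a 95% interval of 0.048 to 0.70, did not pass either (adjusted p = 0.0743, limma).

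Nrg1, neuregulin 1, whose product binds ErbB3 and ErbB4, showed no change past the spread between libraries. In SMCs it stood at 33.5, 34.9 and 36.8 TPM in Scr and 32.7, 31.1 and 36.6 TPM in siKlf4 (log2 fold change -0.068, 95% interval -0.27 to 0.14, adjusted p = 0.582 by limma). In PDGFR-β+ cells Scr held 40.6, 28.0 and 40.8 TPM and siKlf4 36.2, 32.4 and 33.9 TPM (-0.072, interval -0.42 to 0.27, adjusted p = 0.726 by limma). The groups overlapped in both cell types, and Scr replicate 2 of the PDGFR-β+ cells was the lowest of its 6. That library was also the lowest of its group for Egfr and the highest of it for the other 5 genes. The receptors of neuregulin were scarce: Erbb3 was at most 0.453 TPM and Erbb4 at most 0.132 TPM in any library.

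Egfr, the receptor gene, moved in opposite directions too. In SMCs it stood at 183, 153 and 144 TPM in Scr and 124, 116 and 112 TPM in siKlf4, so that each siKlf4 library was below each Scr library (log2 fold change -0.44 ± 0.10, adjusted p = 0.0181 by limma). This call was lost without siKlf4 replicate 2 (-0.43, adjusted p = 0.0627) or siKlf4 replicate 3 (-0.41, adjusted p = 0.0649), by limma in each case. In PDGFR-β+ cells Egfr rose from 61.5, 43.3 and 60.4 TPM to 107, 91.9 and 96.8 TPM, with a wide gap between the groups (0.84 ± 0.14, adjusted p = 0.00286 by limma). The difference of the effects was -1.28 ± 0.19 (adjusted p = 3.8e-04, limma), the largest in size of the 6. Before knockdown the mean level was 160 TPM in SMCs and 55.1 TPM in PDGFR-β+ cells, and after it 117 and 98.5 TPM, so the means of the 2 cell types lay closer together.

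The partner receptor gene Erbb2, which binds no ligand itself, rose in PDGFR-β+ cells, from 18.1 to 23.3 TPM in Scr to 27.3 to 31.5 TPM in siKlf4 (0.43 ± 0.11, adjusted p = 0.0201 by limma). In SMCs it held 26.2 to 27.3 and 25.6 to 30.8 TPM, which overlapped (0.079, adjusted p = 0.534 by limma). The difference between the effects on Erbb2 did not pass (-0.35, adjusted p = 0.0867 by limma).

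Errfi1, whose product binds the EGFR kinase domain and blocks it, rose in both cell types. In SMCs it stood at 213, 204 and 199 TPM in Scr and 272, 258 and 254 TPM in siKlf4 (log2 fold change 0.35 ± 0.062, adjusted p = 0.00778 by limma). In PDGFR-β+ cells it went from 101, 106 and 102 TPM to 143, 147 and 135 TPM (0.45 ± 0.065, adjusted p = 0.00163 by limma). Neither comparison had overlapping groups. The difference between the effects was -0.10 with a 95% interval of -0.28 to 0.080 (adjusted p = 0.369, limma), so a difference of up to 0.28 in favour of PDGFR-β+ cells lies within its error.

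Set against each other within a library, inhibitor and receptor transcripts moved apart in SMCs and together in PDGFR-β+ cells. The ratio of Errfi1 to Egfr was 1.16, 1.33 and 1.38 in Scr SMCs and 2.19, 2.23 and 2.26 in siKlf4 SMCs. In PDGFR-β+ cells it was 1.65, 2.46 and 1.70 in Scr and 1.33, 1.60 and 1.39 in siKlf4. The groups did not overlap in either cell type, with siKlf4 higher in SMCs but lower in PDGFR-β+ cells. The summed TPM of Hbegf, Ereg, Areg and Tgfa was 34.1 to 39.4 in Scr and 56.2 to 59.9 in siKlf4 SMCs, and 65.0 to 82.4 and 62.0 to 68.9 in PDGFR-β+ cells. Divided by Egfr, that sum was 0.186 to 0.273 and 0.481 to 0.519 in SMCs, and 1.07 to 1.90 and 0.579 to 0.750 in PDGFR-β+ cells. Ereg made up 65.5% to 71.1% of the sum in all 6 SMC libraries, and 55.0% to 62.9% in Scr but 45.8% to 46.3% in siKlf4 PDGFR-β+ libraries. These ratios combine genes already tested and got no test of their own. The sum, and so its share of Ereg, leaves out the ligand gene Btc. In PDGFR-β+ cells Btc held 4.33 to 5.73 TPM in Scr and 9.73 to 12.1 TPM in siKlf4, and in SMCs 2.10 to 4.48 and 2.66 to 3.47 TPM.

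**Figure D4:**
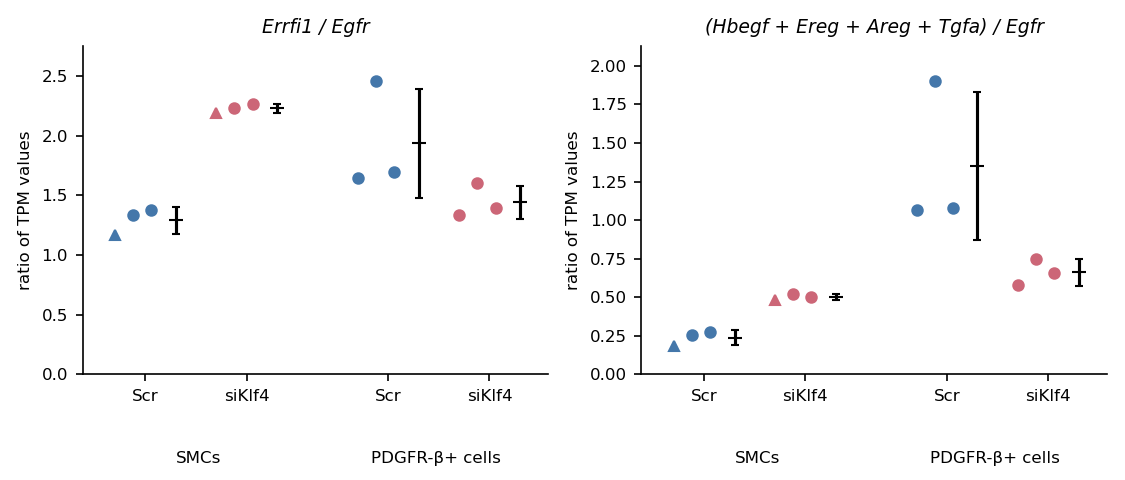
Ratio of Errfi1 TPM to Egfr TPM (left) and of the summed TPM of Hbegf, Ereg, Areg and Tgfa to Egfr TPM (right) in the 12 libraries, on linear axes from 0; bars are the mean and SD of 3 libraries and triangles the SMC libraries with no replicate number. Both ratios are higher with siKlf4 in SMCs, where Errfi1 over Egfr reaches 2.19 to 2.26, and lower with siKlf4 in PDGFR-β+ cells.

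Promoter sequence was looked at because KLF4 is known to bind CACCC boxes and because Tgfa changed in PDGFR-β+ cells and Egfr and Errfi1 in both cell types. The windows run from 250 bases before to 50 bases after a RefSeq start in GRCm38.p6. Genes were matched only to windows off the chromosome of Hbegf, and the promoter of Hbegf was not examined. Within that limit 4 of the 7 genes, Areg, Egfr, Errfi1 and Tgfa, matched an entry. Ereg and Nrg1 matched none, so their promoters were not examined either. CACCC was searched on both strands, its reverse complement being GGGTG, and is in capitals below; 57.5% of 32851 promoter windows hold it. The windows below are those of Egfr (chr11:16751953-16752252, forward strand), Errfi1 (chr4:150854820-150855119, forward strand, the downstream of its 2 windows) and Tgfa (chr6:86194972-86195271, forward strand).
Egfr: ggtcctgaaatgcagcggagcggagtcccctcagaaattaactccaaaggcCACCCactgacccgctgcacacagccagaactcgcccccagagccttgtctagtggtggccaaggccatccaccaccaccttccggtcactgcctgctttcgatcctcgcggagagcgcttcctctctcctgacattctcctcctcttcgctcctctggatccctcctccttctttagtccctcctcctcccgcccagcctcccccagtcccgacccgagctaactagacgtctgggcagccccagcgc
Errfi1: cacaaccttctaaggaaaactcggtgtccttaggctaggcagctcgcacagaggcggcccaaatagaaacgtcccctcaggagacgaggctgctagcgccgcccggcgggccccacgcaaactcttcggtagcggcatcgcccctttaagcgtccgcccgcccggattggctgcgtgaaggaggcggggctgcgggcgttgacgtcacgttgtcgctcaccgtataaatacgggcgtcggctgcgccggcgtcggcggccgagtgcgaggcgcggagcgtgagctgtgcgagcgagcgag
Tgfa: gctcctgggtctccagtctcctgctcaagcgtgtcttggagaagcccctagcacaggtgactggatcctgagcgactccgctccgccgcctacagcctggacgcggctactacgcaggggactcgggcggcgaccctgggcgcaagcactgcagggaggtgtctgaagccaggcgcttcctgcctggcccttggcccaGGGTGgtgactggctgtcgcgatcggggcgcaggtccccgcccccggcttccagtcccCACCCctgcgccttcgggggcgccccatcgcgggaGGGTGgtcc

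The Egfr window had 1 match, 199 bases before the start, and the Tgfa window 3. The Areg window had 2, and neither window of Errfi1 had any. The AP-1 site TGACTCA, which is in 5.2% of all windows, was in none of the 5, and the GC box GGGCGG, which is in 35.7%, was in all but 1 of them, an Errfi1 window. Whether these matches have a part in the changes with siKlf4 was not tested. A match of letters is a description and says nothing of binding.

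Egfr spans 16752203 to 16918158 on the forward strand of chromosome 11, Errfi1 150853919 to 150868892 on the forward strand of chromosome 4, Tgfa 86195223 to 86275719 on the forward strand of chromosome 6 and Nrg1 31814551 to 32884029 on the reverse strand of chromosome 8. Apart from Gm19610 beside Ereg, the genes annotated as overlapping them were low: Egfros, antisense to Egfr, was at most 0.369 TPM and Gm26578, overlapping Nrg1, at most 0.800 TPM in any library.

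The other genes of the pathway were read from 6 lists. The lists were chosen with earlier results of these data known, so the counts from them are descriptive only. Of the other EGF family ligand genes (Egf, Btc, Epgn, Nrg2, Nrg3 and Nrg4), 1 of 6 could be tested, Btc, described above; Egf itself was at most 1.49 TPM. Of the other receptors 1 of 3 could be tested, Erbb2. The sheddases and their partners comprised 9 genes, all tested: in SMCs 4 rose and 1 fell, and in PDGFR-β+ cells 5 fell and none rose. Over all genes tested, 15.6% rose and 12.9% fell in SMCs, and 25.3% rose and 15.3% fell in PDGFR-β+ cells. Their median log2 fold change was 0.067 in SMCs and -0.43 in PDGFR-β+ cells. Adam17, the main protease for Hbegf, Areg, Ereg and Tgfa, fell in PDGFR-β+ cells by 0.47 (adjusted p = 0.00326, limma) and had a change of 0.022 in SMCs (adjusted p = 0.959, limma), and the difference did not pass (0.50, adjusted p = 0.233 by limma). Adam10, which releases EGF and betacellulin, fell by 0.85 in PDGFR-β+ cells and had a change of 0.067 in SMCs, and there the difference passed (0.92, adjusted p = 0.0207 by limma). Adam12, implicated in HB-EGF release, rose from 25.4 to 27.4 TPM in Scr to 43.4 to 46.1 TPM in siKlf4 SMCs and fell from 43.5 to 48.6 TPM to 17.6 to 22.3 TPM in PDGFR-β+ cells (difference 1.93, adjusted p = 2.2e-06 by limma). Rhbdf2, which carries ADAM17 to the cell surface, rose in SMCs by 0.89 (adjusted p = 0.0133, limma), where its change in PDGFR-β+ cells was 0.23 (adjusted p = 0.127, limma). Adam15 fell in both cell types, by 0.83 in SMCs (adjusted p = 0.00351, limma) and 0.87 in PDGFR-β+ cells (adjusted p = 0.00146, limma). Its effects did not differ past the threshold (0.046, adjusted p = 0.871 by limma).

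Of 9 other genes that restrain ErbB receptors, 3 rose and 1 fell in SMCs, and 5 rose and 1 fell in PDGFR-β+ cells, where 28.5% and 40.6% of all genes tested passed in either direction. Their median log2 fold changes were 0.20 and 0.32. Cblb, a ubiquitin ligase that acts on activated receptors, fell by 0.30 in SMCs (adjusted p = 0.0438, limma) and rose by 0.44 in PDGFR-β+ cells (adjusted p = 0.00481, limma), the directions of Egfr in each. Cbl, on the same list, did not share them. It rose by 0.35 in SMCs (adjusted p = 0.0344, limma) and had a change of -0.088 in PDGFR-β+ cells (adjusted p = 0.513, limma). The difference for Cbl passed (0.44, adjusted p = 0.0308 by limma). Sh3kbp1, a CBL partner in receptor uptake, rose in SMCs (0.81, adjusted p = 0.00703 by limma), and Socs4 fell in PDGFR-β+ cells (-1.17, adjusted p = 3.1e-04 by limma). Of 14 adaptor and RAS to ERK genes, 4 rose and none fell in SMCs, and 1 rose and 4 fell in PDGFR-β+ cells, with medians of 0.17 and 0.0067; these counts are close to the 28.5% and 40.6% of all genes that passed. The adaptor gene Shc1 rose in SMCs, from 236 to 254 TPM to 299 TPM in each siKlf4 library, and fell in PDGFR-β+ cells, from 180 to 189 TPM to 97.8 to 104 TPM.

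Of 14 genes known to be induced by ERK, 9 rose and none fell in SMCs, and 6 rose and 2 fell in PDGFR-β+ cells, beside 15.6% upwards and 12.9% downwards of all genes in SMCs and 25.3% and 15.3% in PDGFR-β+ cells. The median log2 fold change was 0.67 in SMCs and 0.28 in PDGFR-β+ cells, beside 0.017 and 0.097 over all genes tested. Dusp6, a phosphatase of ERK, rose in both, by 1.46 in SMCs (adjusted p = 0.00553, limma) and 1.23 in PDGFR-β+ cells (adjusted p = 4.2e-04, limma). Spry1, Spry4 and Spred1, which restrain the pathway upstream of ERK, also rose in both. Dusp4, Dusp5 and Fosl1 rose in SMCs and did not pass in PDGFR-β+ cells, and the effects differed for all 3: Dusp4 (1.70, adjusted p = 2.6e-04), Dusp5 (1.32, adjusted p = 0.00108) and Fosl1 (0.93, adjusted p = 0.0258), by limma. Egr1, an immediate early factor, rose by 0.94 in SMCs and fell by 0.77 in PDGFR-β+ cells. Spred2 fell by 1.05 in PDGFR-β+ cells.

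**Figure D5:**
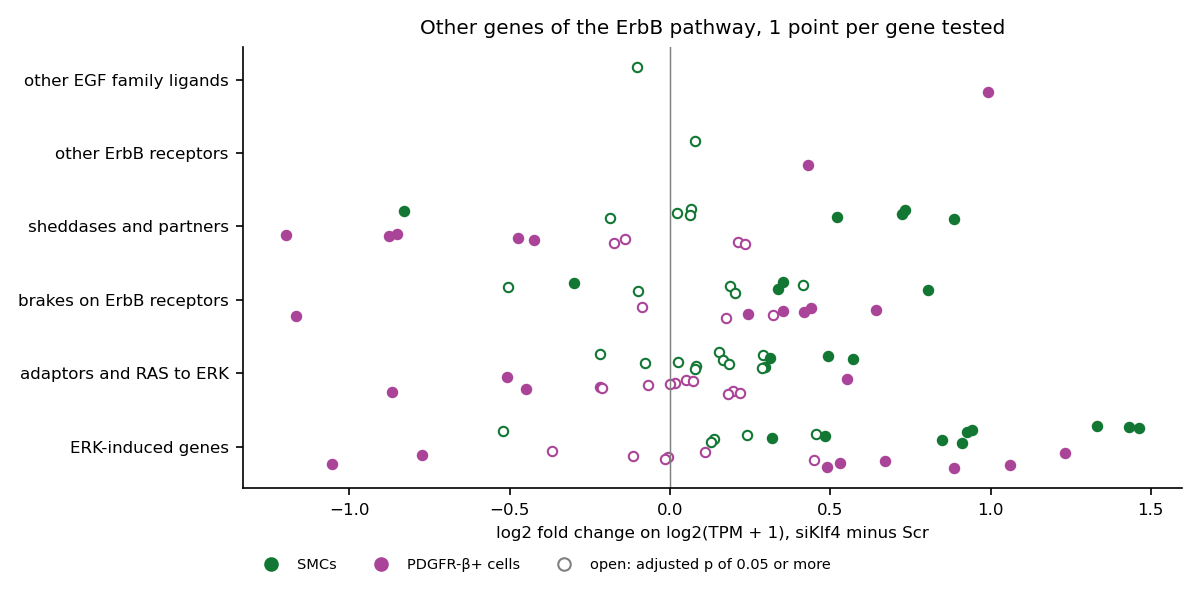
Log2 fold change on log2(TPM + 1), siKlf4 minus Scr, of every tested gene of the 6 pathway lists, in SMCs and PDGFR-β+ cells; each point is 1 gene and open points have an adjusted p of 0.05 or more. Filled points of the ERK-induced list lie right of 0 in SMCs, 9 of 14, and on both sides in PDGFR-β+ cells, while filled sheddase points in PDGFR-β+ cells, 5 of 9, lie left of 0.

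The genes whose levels ran closest to each member were sought among 9869 genes by Pearson's r of log2(TPM + 1) over the 12 libraries, after each cell type was centred on its own mean. The points share the effects of siKlf4 in the 2 cell types and any effect of a library, so high values are common across genes. For Egfr they were Bcl6, Ms4a4d and Fig4, with r from 0.991 to 0.984 and, for Bcl6, 0.987 within the 6 SMC libraries and 0.998 within the 6 PDGFR-β+ libraries. For Ereg they were Ckap2l, Tcp1 and Kif20a, with r of 0.988 to 0.985. Hbegf ran closest to Mcm5 (r = 0.979), Errfi1 to Casp8 (0.985) and Tgfa to Ralgapa1 (0.977). For Nrg1 the closest gene, Tvp23b, reached 0.898, the lowest of the 6 best values.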

How the data were processed

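Per the labels and the study's methods, reads were trimmed and mapped to mm10 by HISAT2 with a GENCODE annotation, and StringTie with ballgown gave abundances. The authors deposited them as TPM values, separately for each cell type and with a column for each library. Since every library has the same TPM total, a rise of abundant genes pulls all other values down; read depth is not kept, and error comes from the spread of 3 libraries alone. The authors' own tests, by DESeq2 on counts, were not repeated. Among the SMC libraries, 1 of each group is unnumbered; these entered their groups without pairing.

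Tests were two-sided and used limma 3.58.1 (R 4.3.3; lmFit and a trended eBayes) on log2(TPM + 1) of genes averaging 1 TPM or more, with a threshold of 0.05 on Benjamini-Hochberg p-values over all genes of the fit. The cell types had separate fits, and the difference between them was the interaction term over 12 libraries, for genes at 1 TPM in both. The members and gene lists were chosen with earlier results of these data known. Every member is named, with Klf4, and genes of the lists where a list is discussed; Gm19610 and Gm42418 were picked with their values in view. Genes compared for nearest patterns needed a mean of 5 TPM in both cell types and a name other than that of a clone or gene model.

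Alternatives were a pseudocount of 0.1, no filter, a minimum of 5 TPM, median-ratio scaling, quantile normalization, no trend in eBayes, 1 fit for both cell types (separate fits for the difference), a replicate block, the numbered SMC libraries alone, a term for their naming, and leaving out each library, with a block over the unnumbered SMC libraries too added later. Positions are from GENCODE M21 on GRCm38, in which 52403 of 52636 identifiers were found, 49035 with the same version; the identifier of Hbegf was found with another version. Promoter windows are RefSeq sequences. Figures were drawn with matplotlib 3.10.9 in Python 3.11.15. Single-cell data of the study were not analysed here.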

Additional observations from a re-analysis of the deposited data

Results flagged for a closer look

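SMCs and PDGFR-β+ cells responded differently to siKlf4 for 3 of the 6 genes tested, by the interaction term over 12 libraries (limma), which 33.0% of 13032 genes passed. For Hbegf the difference, SMCs minus PDGFR-β+ cells, was 0.98 on the log2 scale (adjusted p = 0.0116), with a rise of 1.31 in SMCs and a value of 0.34 that did not pass in PDGFR-β+ cells. For Ereg the difference was 1.11 (adjusted p = 6.5e-05), with a rise in SMCs and a fall in PDGFR-β+ cells. For Egfr it was -1.28 (adjusted p = 3.8e-04), with a fall in SMCs and a rise in PDGFR-β+ cells. The smooth muscle marker sum moved with siKlf4 in opposite directions too, from 1435 to 2220 up to 3305 to 4067 TPM in SMCs and from 5495 to 6338 down to 4630 to 4930 TPM in PDGFR-β+ cells, and the part of this in the 3 differences was not tested. Cell source and culture cannot be told apart from cell type in this design.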

How the results depend on the processing

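The counts of genes past the threshold stayed between 3 and 5 of the members in SMCs over 17 alternatives, between 3 and 5 in PDGFR-β+ cells over 14, and between 3 and 4 for the difference over 23, beside 4, 4 and 3. Of 322 values of single genes under an alternative, 305 kept direction and call. Those that did not were the following, and their cause was not tested. Egfr in SMCs lost its call without siKlf4 replicate 2 or 3, and Hbegf in PDGFR-β+ cells gained one without Scr replicate 2, as given above. The difference for Tgfa passed with a pseudocount of 0.1 (0.56, adjusted p = 0.0389), median-ratio scaling (0.42, adjusted p = 0.0347), quantile normalization (0.54, adjusted p = 0.0122) and no trend (0.37, adjusted p = 0.0340), all by limma. Nrg1, near 0, changed sign: in PDGFR-β+ cells to 0.013 and 0.016 without Scr replicates 1 and 3, and for the difference to -0.013 with the numbered SMC libraries alone or with the replicate block, and to between -0.085 and -0.0014 in 6 of 12 fits without 1 library. Over all fits without 1 library Nrg1 ran from -0.25 to 0.016 in PDGFR-β+ cells and from -0.085 to 0.18 for the difference, the extremes -0.25 and 0.18 being those without Scr replicate 2. Nothing says that replicate numbers mark a shared source. Deviations from the group means of same-numbered PDGFR-β+ libraries had correlations of 0.073, -0.016 and 0.0043, and not every library correlated best with its own number; the 2 numbered SMC pairs gave 0.185 and 0.199 and the unnumbered SMC libraries 0.361, each library there correlating best with its partner. Gm42418 also went with the number in PDGFR-β+ cells (34778 and 35974, 49579 and 48907, 63263 and 62541 TPM in Scr and siKlf4 1 to 3). With the replicate block 4 members passed in SMCs (numbered libraries only), 4 in PDGFR-β+ cells and 3 for the difference, and no member's call changed. Over all genes 2806 of 13709, 5641 of 13694 and 3891 of 13032 passed there. A block that also took the unnumbered SMC libraries as a pair, added after seeing the data, left 4 in SMCs and 3 for the difference, with the same calls. With that block 4872 of 13709 and 5037 of 13032 genes passed. Median-ratio scaling moved the median of all genes in PDGFR-β+ cells from 0.097 to 0.0098 and turned no member's direction there. TPM carries no depth, which limits what can be said of Areg.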
